A study of Homo sapiens with 41 samples.

Results

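Peaks of Elongin A were examined at 10 heat shock and chaperone genes in DLD1 cells, an established human colon cancer cell line, grown without any stress treatment stated in the labels or methods. The members were HSPA1A, HSPA1B, HSPA5, HSPA8, HSP90AA1, HSP90AB1, HSPD1, HSPE1, HSPH1 and DNAJB1, chosen by name, and a peak belonged to a member when it overlapped the annotated gene with 1 kb either side by at least 1 bp. They are 10 of 20149 protein-coding gene symbols of GENCODE release 44 on hg19. Of the 41 samples of the series, 7 lie behind the 3 deposited peak lists used here, and the other 34 were not analysed here. All 7 came from DLD1 cells that carried no knockdown or treatment in their labels, so every comparison is between positions and genes, not between conditions. Behind the goat antibody list stand 2 CUT&RUN samples and a goat IgG sample as control, and how the 2 were combined is not stated. A single CUT&RUN sample with a mouse IgG sample gave the mouse antibody list. The ChIP-seq list rests on 1 immunoprecipitated sample and its input. CUT&RUN cuts out DNA around an antibody-bound protein with a tethered nuclease, and the authors fixed the cells with formaldehyde for it. The lists held 8720, 2338 and 186 peaks, respectively, with a sequencing depth that is unknown, and no list separates replicates, so no value below has a replicate error and no difference was tested. A cell type check against marker genes was not possible, because peak lists hold no expression levels.

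Elongin A is the large subunit of the Elongin complex, which was found by its stimulation of RNA polymerase II elongation in vitro and, with other partners, forms a ubiquitin ligase. Chaperones bind unfolded proteins and help them fold. Some chaperone genes are transcribed at a high level in growing cells, such as HSPA8 (the constitutive cytosolic HSP70), HSP90AB1 (the constitutive cytosolic HSP90) and HSPA5 (BiP, the HSP70 of the endoplasmic reticulum). Others, such as HSPA1A, HSPA1B and DNAJB1, are switched on mainly by heat shock factor 1, which binds heat shock elements made of inverted repeats of a short GAA unit. At HSPA1A and its fly counterparts, a polymerase paused near the transcription start site (TSS) is released on heat shock.

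Elongin A peaks were concentrated on 4 of the 10 genes. In the goat list, HSPA5 and HSP90AA1 held 6 peaks each and HSPA8 and HSP90AB1 held 5 each, so that 22 of the 23 member peaks fell on these 4 genes. HSPD1, the mitochondrial chaperonin HSP60, held the remaining peak. HSPA1A, HSPA1B, HSPE1, HSPH1 and DNAJB1 held no peak in any of the 3 lists. In all, 5 of 10 members had a goat peak, where 21.7% of all protein-coding genes did. At least 5 goat peaks were found at 4 of 10 members and at 0.933% of protein-coding genes. This count depended on how the signal was cut into peaks. When peaks within 1 kb of each other were merged, HSP90AA1 had 4, HSPA8 3, HSPA5 2 and HSP90AB1 and HSPD1 1 each, so that 0 members had at least 5, beside 0.531% of protein-coding genes, and 3 members had at least 2, beside 5.95%. With peaks whose 32 bp at the summit occur once in the genome, 1 member had at least 5. At HSPA8, 1 of the 5 peaks lay mostly outside the 1 kb window. Its near edge was 931 bp and its summit 2860 bp past the transcript end. With only peaks whose summit lay inside the window, 3 members had at least 5. The share of protein-coding genes under either rule was not counted. The mouse list had 3 peaks at members, all at HSP90AB1, so that 1 of 10 members was called, beside 7.79% of protein-coding genes. The ChIP-seq list had no peak at any member within 1 kb, beside 0.784% of protein-coding genes with one.

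**Figure D1:**
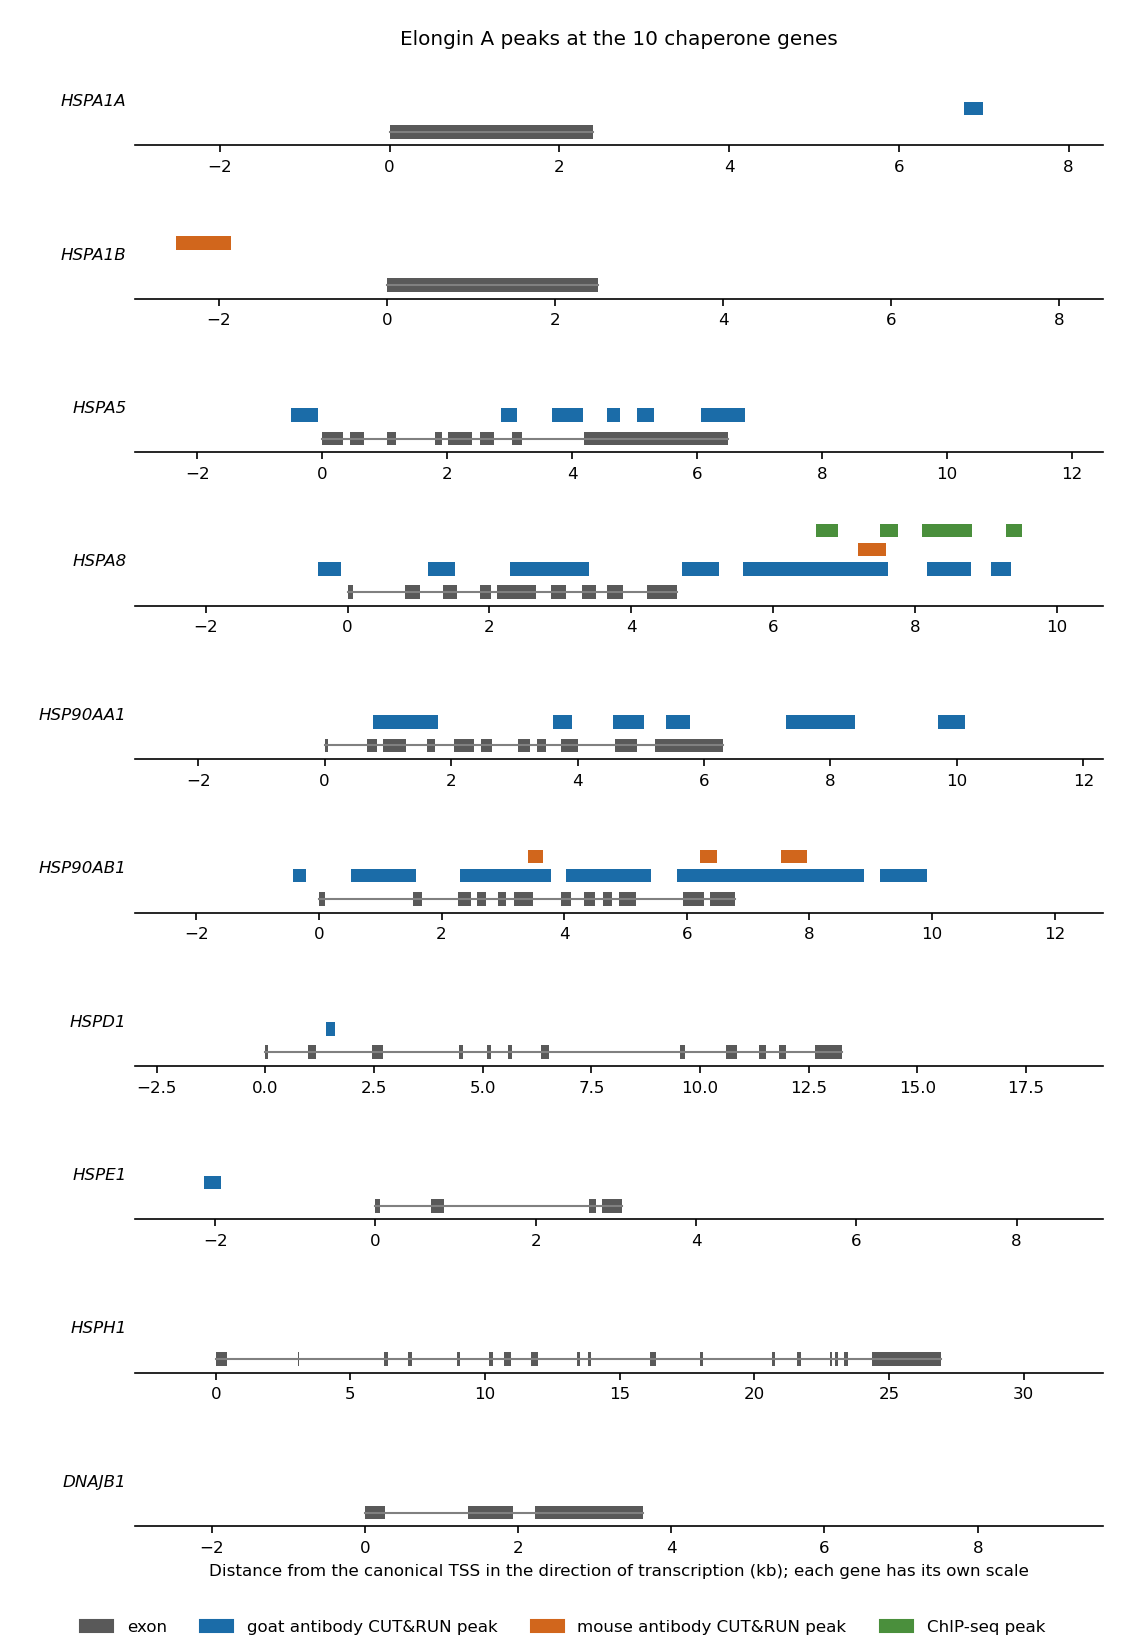
Position of every peak at and near the 10 genes, with distance from the canonical TSS in kb on the horizontal axis (each gene on its own scale), exons as grey boxes, and peaks of the goat, mouse and ChIP-seq lists as blue, orange and green boxes. Peaks beyond 1 kb from a gene are drawn but not counted, and 1 HSP90AA1 peak 38928 bp upstream of the canonical TSS lies off the plot. HSPA5, HSPA8, HSP90AA1 and HSP90AB1 carry 22 of the 23 goat peaks.

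Short genes were found among the members with peaks as well as those without. When protein-coding genes were divided into 3 equal classes by length, the shortest class, up to 13.9 kb, had at least 1 goat peak at 13.2% and at least 5 at 0.417% of its genes. It included 6 members, and HSPA5, HSPA8 and HSP90AB1 among them had at least 5. The middle class, up to 50.4 kb, had at least 1 peak at 19.7% and at least 5 at 0.581%, and of its 3 members HSPD1 had 1 peak. HSP90AA1 was the only member of the longest class (32.3% and 1.80%), because of a long minor transcript. Its canonical transcript measures 6303 bp, and 4 of its 6 peaks had their summits in it.

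The number of peaks per gene, before merging, was set beside that in related gene lists. Of 83 other chaperone genes, 17 had a goat peak (20.5%), none had at least 5, and the most at 1 gene was 3. Cytosolic ribosomal protein genes had a goat peak at 62 of 75 (82.7%) and at least 5 at 9 (12%). Immediate early and stress response genes had one at 20 of 24 (83.3%), and none had at least 5. These are counts only, and no set test was made.

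**Figure D2:**
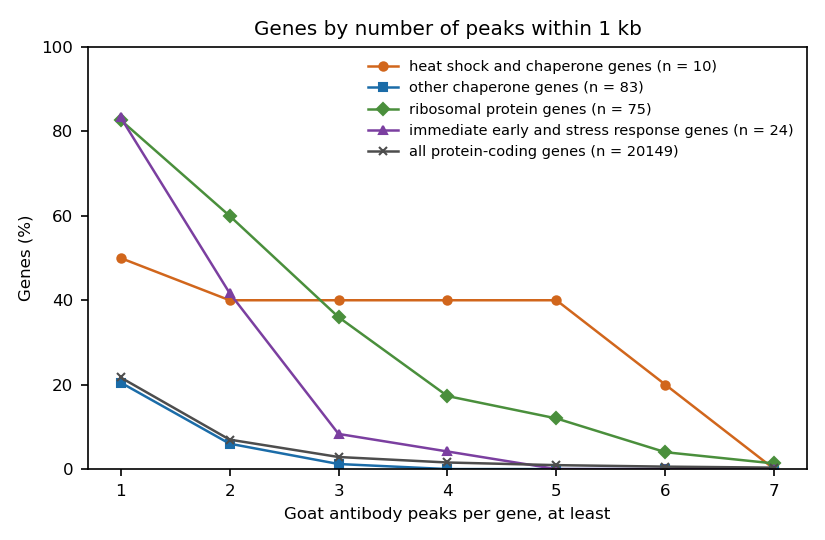
Percent of genes (vertical axis) with at least the number of goat antibody peaks given on the horizontal axis, for the 10 heat shock and chaperone genes, 83 other chaperone genes, 75 ribosomal protein genes, 24 immediate early and stress response genes and all 20149 protein-coding genes. The line of the 10 members (peaks not merged) stays at 40.0% from 2 to 5 peaks, where that of all protein-coding genes drops from 6.98% to 0.933%.

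HSP90AB1 had the strongest and the widest goat peak of the 10 genes. The gene (ENSG00000096384) lies at chr6:44213903-44221625 on the plus strand, with a canonical transcript of 6783 bp and 12 exons. Fold enrichment, the ratio of the signal at a peak to the local control background as MACS2 reported it, was 3.88 in the promoter peak, 5.40 in intron 1, 6.93 in intron 6, 4.32 in intron 9 and 11.3 at the transcript end site (TES). The TES peak thus stood highest and the promoter peak lowest. The TES peak, chr6:44220680-44223729, was 3050 bp wide, ranked 48 of 8720 by fold enrichment and had a −log10 q-value of 27.4. Its summit lay in coding exon 12, 303 bp before the TES, and the peak ran past the TES into SLC35B2, which is transcribed on the other strand and encodes a transporter. It also covered the microRNA gene MIR4647. Signal from HSP90AB1 and from SLC35B2 cannot be told apart there.

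Goat peaks covered 71.8% of the canonical HSP90AB1 transcript, which ranked 26 of 20149 protein-coding genes by this measure. At least 50% was covered at 1 of 10 members and at 0.233% of protein-coding genes. The mouse antibody list had 3 peaks there, each overlapping a goat peak. Their fold enrichments were 5.74 in intron 6, 3.55 in coding exon 12 and 4.48 past the TES, and their ranks were 250, 1956 and 1060 of 2338. By class, 0 members had a mouse promoter peak (1.97% of protein-coding genes) and HSP90AB1 alone a mouse gene body peak (4.63%) and a mouse TES peak (0.367%). The summit of that TES peak lay in SLC35B2, 1101 bp past the TES, so that by the summit 0 mouse peaks were in the TES window. The strongest mouse peak was that in intron 6, whereas the strongest goat peak was the TES peak, so classed by its centre. Another goat peak inside SLC35B2, with a fold enrichment of 6.69, lay 2978 bp past the TES and outside the 1 kb window.

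**Figure D3:**
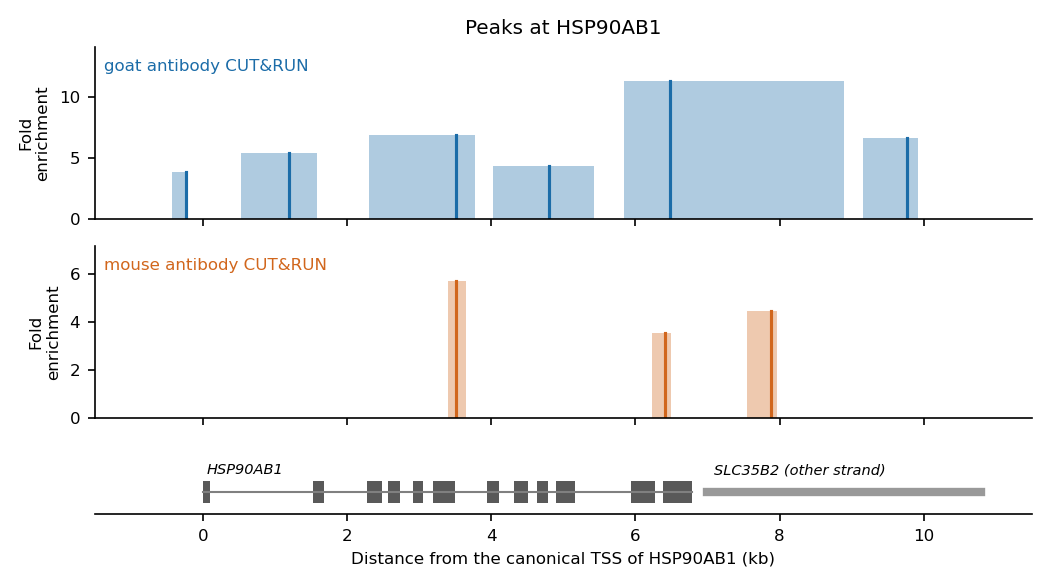
Fold enrichment (vertical axes, separate for each list) of goat and mouse antibody CUT&RUN peaks at HSP90AB1 against distance from its TSS in kb. Shaded boxes span each peak, dark lines mark summits, and the lowest panel shows HSP90AB1 exons and SLC35B2. The goat maximum of 11.3 belongs to the TES peak, whose summit lies 303 bp before the TES, and the mouse maximum of 5.74 lies in intron 6.

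The intron 6 peaks are the closest match between the 2 antibodies at a member. The goat summit lay at base 10 and the mouse summit at base 11 of the intron, 1 bp apart, just past the 5′ splice site. The sequence around them is shown because the 32 bp at either summit occur once in the genome, which is not so at every peak of these genes. Capitals mark both summits, and the bases before gtgtgag are the coding end of exon 6.
HSP90AB1 exon 6 and intron 6 (chr6:44218246-44218447, plus strand): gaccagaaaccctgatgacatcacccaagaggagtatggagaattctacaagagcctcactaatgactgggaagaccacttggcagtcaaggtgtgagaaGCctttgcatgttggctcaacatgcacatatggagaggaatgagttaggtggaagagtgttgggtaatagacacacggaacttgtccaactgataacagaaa
At the TES peak, by contrast, the 32 bp at the goat summit occur 2 times in the genome.

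HSPA8 carried its strongest Elongin A signal past its 3′ end. The gene (ENSG00000109971) lies at chr11:122928197-122933938 on the minus strand, with a canonical transcript of 4648 bp and 9 exons. Goat fold enrichment was 2.90 in the promoter peak, 4.15 at exon 3, 4.58 at exon 6, 6.42 at the TES peak and 8.57 in a peak further downstream. The 5 values thus stood in the order of transcription, lowest at the promoter, without a replicate to give an error. The TES peak had its summit 318 bp past the TES. The downstream peak, chr11:122925224-122927266, was 2043 bp wide, ranked 168 of 8720 and had a −log10 q-value of 24.9, with its summit 2860 bp past the TES. The exon 6 peak, 1111 bp wide, also covered SNORD14D and SNORD14C, small nucleolar RNA genes hosted by HSPA8 introns, although its summit lay in neither.

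All 3 lists had peaks in the interval from 1 to 5 kb past the HSPA8 TES. The goat list had 3 there, with fold enrichments of 8.57, 3.68 and 3.26. The mouse list had 1, with a fold enrichment of 5.92, rank 204 of 2338 and its summit 2744 bp past the TES. The ChIP-seq list had 4, with fold enrichments of 5.34, 5.68, 6.20 and 5.37 at 2156, 2980, 4077 and 4743 bp past the TES. The ChIP-seq values were weak within that list, whose median was 9.99, and ranked from 141 to 156 of 186. These 4 peaks made up 2.15% of the ChIP-seq list and 4 of its 12 peaks on chromosome 11. A peak centre in the same interval was found in the goat list for 3.37%, in the mouse list for 0.943% and in the ChIP-seq list for 0.129% of protein-coding genes. Among the members, the goat list had one past HSPA1A, HSPA8, HSP90AA1 and HSP90AB1, and the other lists past HSPA8 alone. The interval was chosen with these peaks known, so the shares are a description.

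A stretch of 78 bp, 2868 to 2945 bp past the TES, was common to peaks of all 3 lists. It is printed with its surroundings because the edges of these peaks overlap there, and it holds no summit. The summits of the overlapping goat, mouse and ChIP-seq peaks lay 2860, 2744 and 2980 bp past the TES. The common stretch lies in no annotated gene, and the next gene downstream is the processed pseudogene RPL31P47, 6.09 kb from the TES. Capitals mark the common stretch, and the strand is that of HSPA8.
HSPA8 downstream (chr11:122925141-122925440, minus strand): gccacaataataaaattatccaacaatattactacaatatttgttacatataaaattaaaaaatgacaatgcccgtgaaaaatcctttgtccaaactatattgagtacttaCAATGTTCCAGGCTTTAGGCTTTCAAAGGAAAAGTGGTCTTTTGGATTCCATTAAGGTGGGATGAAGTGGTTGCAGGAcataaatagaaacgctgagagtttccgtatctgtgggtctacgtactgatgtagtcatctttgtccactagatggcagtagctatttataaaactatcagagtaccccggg
The 32 bp at each summit in this interval occur once in the genome.

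**Figure D4:**
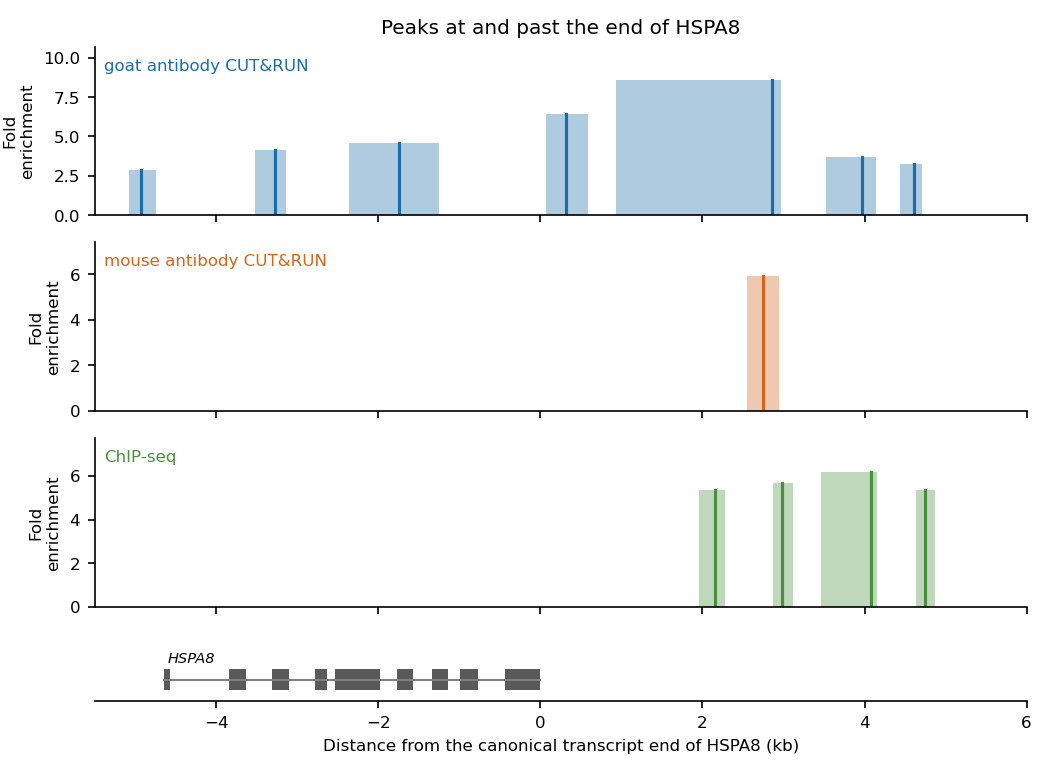
Fold enrichment (vertical axes, separate for each list) of goat antibody, mouse antibody and ChIP-seq peaks against distance from the TES of HSPA8 in kb, with transcription from left to right. Shaded boxes span peaks, dark lines mark summits and the lowest panel shows HSPA8 exons. No mouse or ChIP-seq peak lies before the TES, and the nearest edge of one is 1960 bp past it.

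HSPA5 (ENSG00000044574) lies at chr9:127997132-128003661 on the minus strand. Its canonical transcript measures 6491 bp and has 8 exons. Goat fold enrichment was 4.13 in the promoter peak, 3.04 at exon 7, 4.75 in intron 7, 5.16 in the coding part of exon 8, 3.68 in the 3′ UTR and 6.34 in the TES peak. The TES peak, chr9:127996850-127997552, stood highest, with its summit 100 bp past the TES, and ranked 885 of 8720, just outside the top 10% of the list (872 peaks). The promoter summit lay 341 bp upstream of the TSS, inside the divergent long noncoding gene HSPA5-DT, so it cannot be assigned to either transcript. Neither the mouse list nor the ChIP-seq list had a peak within 10 kb of HSPA5.

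HSP90AA1, the HSP90 gene that heat induces more strongly, had its highest peak near the start of the transcript. The gene (ENSG00000080824) spans chr14:102547079-102606036 on the minus strand, and no goat peak had its centre in the promoter or TES window of its canonical transcript, although the near edge of the peak beyond the end lay 991 bp past the TES. Its fold enrichments were 6.0 at exon 3, 5.49 at exon 9, 4.47 at exon 10, 4.05 in the 3′ UTR, 3.90 beyond the end and 3.43 far upstream. The highest, chr14:102551588-102552611, had its summit 1204 bp past the TSS and ranked 1141 of 8720. The peak beyond the end, 1096 bp wide, had its summit 1007 bp past the TES. The upstream peak lay within the longer annotated transcript. The summit sequences at exon 3, exon 10 and the 3′ UTR occur 3, 2 and 2 times in the genome, so reads there may be shared with copies.

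HSPD1 and HSPE1 encode the mitochondrial chaperonin HSP60 and its co-chaperonin HSP10 and are transcribed away from each other from neighbouring start sites on chromosome 2. The HSPD1 peak, chr2:198362958-198363173 in intron 2, had a fold enrichment of 2.98 and a −log10 q-value of 1.41, close to the default limit of the peak caller. It ranked 8079 of 8720 and lay 1691 bp from HSPE1, outside the HSPE1 window. Neither gene had a peak at the shared promoter region.

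HSPA1A, HSPA1B, DNAJB1 and HSPH1 had no peak within 1 kb. A gene without a goat peak is the common case, as 21.7% of protein-coding genes had one. HSP90AA1, which heat also induces, held 6 peaks, or 4 after merging. Heat induction was not measured in these samples, and its relation to the peaks was not tested. HSPA1A (ENSG00000204389, chr6:31783320-31785723) and HSPA1B (ENSG00000204388, chr6:31795515-31798031) are single-exon genes on the plus strand with near-identical coding sequences for inducible HSP70. The nearest goat peak, with a fold enrichment of 4.76, lay between them, with its edges 4370 bp past HSPA1A and 5198 bp from HSPA1B. The nearest mouse peak, with a fold enrichment of 3.89, had its near edge 1853 bp from HSPA1B. DNAJB1 (ENSG00000132002, chr19:14625581-14671203), the HSP40 partner of HSP70, had the edge of its nearest goat peak 8445 bp away. HSPH1 (ENSG00000120694, chr13:31709110-31736525), an HSP110 that exchanges the nucleotide of HSP70, had it 89090 bp away.

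The sequence of these genes limits how a missing peak can be read. Only 23.3% of the 32 bp words of the HSPA1A transcript and 26.5% of those of HSPA1B occur once in the genome, and their coding sequences are identical at 1919 of 1923 aligned bases (99.8%). In the 1 kb upstream of either TSS, 95.6% of words occur once in the primary assembly, the only sequence searched. The paper does not state which hg19 contigs the reads were mapped to. DNAJB1 and HSPH1 had 90.1% and 97.3% unique words in the transcript, and HSPE1 had 82.7%. Among the members with many peaks the share was 72.5% for HSP90AA1, 76.7% for HSPA8, 77.9% for HSPA5 and 81.6% for HSP90AB1. The part of multiply mapping reads in the missing HSPA1A and HSPA1B peaks was not tested. A gene without a peak passed no threshold at a depth that is unknown, which does not show that Elongin A was absent.

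At HSPA5, HSPA8 and HSP90AB1, the TES peak had a higher fold enrichment than the promoter peak. By the peak centre, promoter peaks (1000 bp upstream to 100 bp downstream of the TSS) were found at HSPA5, HSPA8 and HSP90AB1, with fold enrichments of 2.90 to 4.13, beside 5.95% of protein-coding genes with one. TES peaks (100 bp upstream to 1000 bp downstream of the TES) were found at the same 3 genes, with fold enrichments of 6.34 to 11.3, beside 1.53%. These ranges rest on 3 peaks a class. The share of protein-coding genes whose TES peak stands above their promoter peak was not counted. By the summit in place of the centre, 2 TES peaks remained, of 6.34 and 6.42, because the HSP90AB1 peak of 11.3 then counted as gene body. Gene body peaks numbered 14 at 5 members, with a median fold enrichment of 4.53 and a range of 2.98 to 6.93, beside 14.1% of protein-coding genes with one. All 3 classes were present together at 3 of 10 members (2 by the summit) and at 0.169% of protein-coding genes. For comparison, 1407 protein-coding genes had at least 2 goat peaks. Their strongest peak was in the gene body at 67.6%, in the promoter at 10.6% and at the TES at 6.40%. It lay outside these classes before the TSS at 9.81% and past the end, as at HSPA8, at 5.61%. With all annotated transcripts in place of the canonical one, the split became 7 promoter, 8 body and 6 TES peaks, so the classes depend on the transcript chosen.

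**Figure D5:**
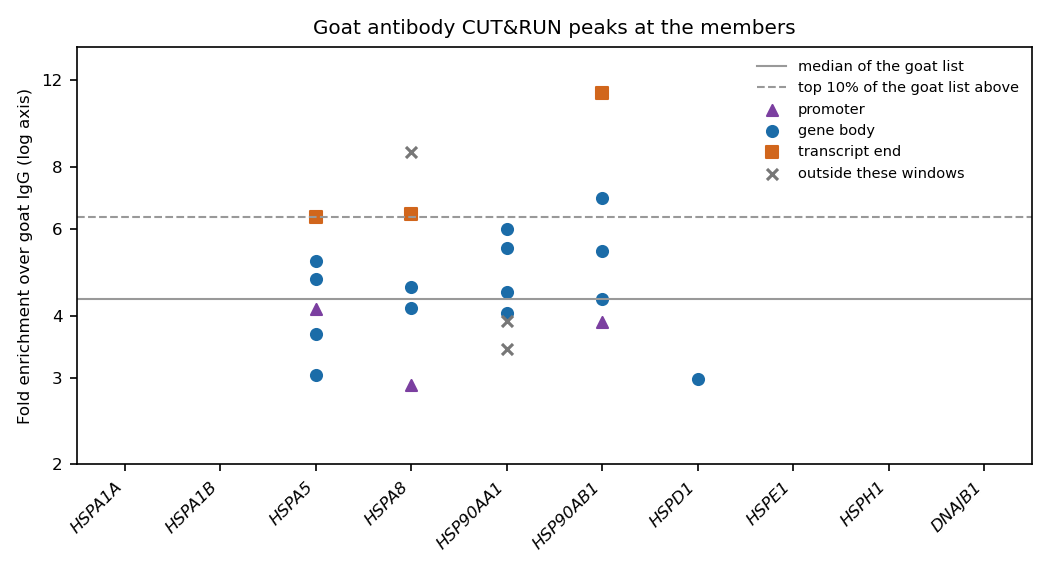
Fold enrichment over goat IgG (log axis) of each of the 23 goat antibody peaks, by gene and by class of the peak centre. Grey lines mark the median of the whole list, 4.32, and the value above which its top 10% lies. TES peaks range from 6.34 to 11.3 and promoter peaks from 2.90 to 4.13, and 5 genes have no point.

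The member peaks were close to the goat list in median height and above it in width. Their median goat fold enrichment was 4.47, against 4.32 for the whole list, and 12 of 23 were above that list median. The 4 in the top 10% were at HSP90AB1 and HSPA8, and 1 of them was the HSPA8 peak mostly outside the 1 kb window. The median width was 483 bp, against 362 bp for the whole list, and 8 of 23 were at least 1 kb wide, as were 4.51% of all goat peaks. Of the summits, 8 lay in coding exons, 5 in introns, 2 in 3′ UTRs, 4 upstream of the TSS and 4 downstream of the TES. Mouse peaks overlapped 3 of 23 goat member peaks, beside 8.33% of all goat peaks (95% Wilson interval 7.76% to 8.92%, for counting error only). ChIP-seq peaks overlapped 1 of 23, beside 0.837%. The 32 bp at the summit occurred more than once in the genome for 6 of 23 member peaks, beside 3.18% of the goat list. All but 1 of their other places in the genome lay in processed pseudogenes (HSPA5P1, HSP90AA2P, HSP90AA5P, HSP90AB3P and HSPA8P8), and none had a peak within 500 bp.

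The promoter peaks of HSPA5, HSPA8 and HSP90AB1 lay upstream of the canonical TSS. At HSPA8 and HSP90AB1 other annotated transcripts start further upstream, so that these peaks lay inside the annotated gene. Measured from the canonical TSS, their summits lay 341 bp upstream at HSPA5, 283 bp at HSPA8 and 240 bp at HSP90AB1. The peaks spanned 497 to 69 bp, 424 to 100 bp and 421 to 211 bp upstream. To set this against the DNA, the 300 bp before each canonical TSS were searched on both strands. A heat shock element of 3 units (GAANNTTC followed by NNGAA, or TTCNNGAA followed by NNTTC) occurred at HSPA8, HSP90AA1, HSPD1 and HSPH1 and at 0.407% of 20144 promoters. The HSPD1 element lies between the HSPD1 and HSPE1 start sites. It crosses the far edge of the 300 bp searched for HSPE1, so it was not counted there. Its head-to-head part GAANNTTC, which overlaps the longer element, occurred at 7 members, HSPA1A, HSPA1B and DNAJB1 among them, and at 5.87%. The tail-to-tail part TTCNNGAA, which also overlaps it, occurred at 4 members and 6.74%. TATAAA occurred at HSPA1A and HSPA1B and at 11.2%, and CCAAT at 6 members and 37.8%. The endoplasmic reticulum stress element, CCAAT and CCACG with 9 bases between them, occurred at HSPA5 and at 0.109%.

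Upstream stretches of members with and without a promoter peak are shown, as far as they lie outside annotated UTRs, so that the elements can be set against the peaks. Capitals mark heat shock element words, TATAAA and the endoplasmic reticulum stress element. All are hg19 sequence read in the direction of the gene, and HSPA1B stands for HSPA1A too, to which it is identical at 281 of 301 aligned positions.
HSPA1B, no peak (chr6:31795215-31795514, plus strand): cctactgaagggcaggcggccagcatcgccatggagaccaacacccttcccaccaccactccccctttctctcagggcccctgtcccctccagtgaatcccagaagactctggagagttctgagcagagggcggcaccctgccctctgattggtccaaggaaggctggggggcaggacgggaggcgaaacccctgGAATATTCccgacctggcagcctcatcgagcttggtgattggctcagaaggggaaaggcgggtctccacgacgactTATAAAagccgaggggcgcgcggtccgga
HSP90AA1, no promoter peak (chr14:102553382-102553681, minus strand): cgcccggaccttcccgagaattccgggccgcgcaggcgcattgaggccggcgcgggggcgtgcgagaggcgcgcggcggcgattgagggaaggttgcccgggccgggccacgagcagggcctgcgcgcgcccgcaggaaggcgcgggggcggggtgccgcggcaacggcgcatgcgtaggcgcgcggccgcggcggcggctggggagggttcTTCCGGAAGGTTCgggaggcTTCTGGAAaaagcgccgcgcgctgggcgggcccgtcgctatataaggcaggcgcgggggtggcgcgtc
HSPA8, promoter peak (chr11:122933061-122933144, minus strand): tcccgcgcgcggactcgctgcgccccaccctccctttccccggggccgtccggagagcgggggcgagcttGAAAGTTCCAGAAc
HSPA5, promoter peak (chr9:128003662-128003922, minus strand): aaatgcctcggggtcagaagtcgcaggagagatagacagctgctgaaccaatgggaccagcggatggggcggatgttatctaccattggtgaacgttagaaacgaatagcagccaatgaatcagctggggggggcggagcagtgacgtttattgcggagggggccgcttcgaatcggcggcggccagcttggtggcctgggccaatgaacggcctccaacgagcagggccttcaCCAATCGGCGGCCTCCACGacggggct
HSP90AB1, promoter peak (chr6:44214538-44214823, plus strand): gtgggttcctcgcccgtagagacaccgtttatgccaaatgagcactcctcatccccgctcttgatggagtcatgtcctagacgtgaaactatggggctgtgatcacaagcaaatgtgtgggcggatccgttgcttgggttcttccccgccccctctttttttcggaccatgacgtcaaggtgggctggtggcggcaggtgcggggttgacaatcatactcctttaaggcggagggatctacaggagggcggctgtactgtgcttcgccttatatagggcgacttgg
The HSPA1B stretch ends 1 bp upstream of its TSS, and its heat shock element lies 105 to 98 bp and its TATA word 29 to 24 bp upstream. At HSP90AA1 the 3-unit element lies 88 to 76 bp upstream. At HSPA8 the printed element, 230 to 218 bp upstream, lies inside the promoter peak, and another, 55 to 43 bp upstream, lies outside it. At HSPA5 the stress element, 66 to 48 bp upstream, begins just past the near edge of the peak, at 69 bp. The HSP90AB1 stretch holds none of these words. A goat promoter peak was present at 10 of the 82 genes with a 3-unit element (12.2%), at 72 of the 1182 with GAANNTTC (6.09%), at 7.0% of those with TTCNNGAA, at 4.58% with TATAAA, at 7.77% with CCAAT, at 4 of the 22 with the endoplasmic reticulum stress element (18.2%) and at 5.95% of all protein-coding genes. A match of letters is a description and does not show that a factor binds.

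The share of other chaperone genes with a goat peak, 20.5%, was near the 21.7% of all protein-coding genes, against which the following counts can be read. Goat peaks were found at 2 of 11 further HSP70 genes, 0 of 2 further HSP90 genes, 0 of 9 small heat shock protein genes, 4 of 20 J-domain genes, 1 of 8 CCT chaperonin genes, 2 of 6 prefoldin genes, 5 of 16 co-chaperone genes, 3 of 8 endoplasmic reticulum folding factor genes and 0 of 3 heat shock factor genes. Their median fold enrichment was 4.20, and 2 of 23 peaks were in the top 10% of the list. ST13, which encodes the HSP70 co-chaperone Hip, held the stronger, at 7.65 in intron 10. The other, at 7.55, overlapped the annotated span of the J-domain gene DNAJB4 but had its summit in FUBP1.

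Mouse peaks were found at 7 of these 83 genes, where 7.79% of all protein-coding genes had one. HSPA13, an HSP70 of the microsomes, had the highest, with a fold enrichment of 6.45 and rank 93 of 2338, near its TSS. HSPA9, the mitochondrial HSP70, had one of 4.63 in intron 2, and DNAJB12 had one of 3.53 in intron 8. At DNAJB4, PFDN6 and SIL1 the summits (4.57, 5.55 and 4.03) lay outside the canonical transcript, in the other genes GIPC2, RGL2 and MATR3. The PFDN1 summit (4.88) lay in intron 3 of PFDN1 and also in CYSTM1. The ChIP-seq list, with a peak at 0.784% of protein-coding genes, had 1 among the 83, at CCT8, a subunit of the cytosolic chaperonin, with a fold enrichment of 11.8, rank 74 of 186 and its summit 108 bp upstream of the TSS. The most merged goat peaks at 1 of these 83 genes was 3, against 4 at HSP90AA1, 3 at HSPA8, 2 at HSPA5 and 1 at HSP90AB1. The 4 at HSP90AA1 include a peak 38928 bp upstream of the canonical TSS, within the longer annotated transcript. They also include a peak whose near edge lay 991 bp past the TES, just inside the 1 kb window.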

How the data were processed

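The 10 members and all gene lists were chosen with earlier results of these data known. The authors mapped read pairs with Bowtie2 (hg19), took out PCR duplicates with Picard and called peaks with MACS2 at default parameters against goat IgG or input, and no mapping quality filter is stated. That mouse IgG was the control of the mouse list is taken from the labels. Deposited values are the authors' MACS2 fold enrichment (a ratio), the −log10 p-value and −log10 q-value and the summit of each peak. The q-value limit is 0.05.

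Positions were converted to count from 1 and overlapped with GENCODE release 44 lifted to GRCh37. Classes used the peak centre on the Ensembl canonical transcript, in the order promoter, TES, body. Peaks were ranked by fold enrichment within a list. Exact copies of the 32 bp at each summit were counted on both strands of the GRCh37 primary assembly. An overlap of at least 1 bp counted, and protein-coding genes under the same rule gave the background. Named genes were all members, other chaperone genes with a goat peak in the top 10% or any mouse or ChIP-seq peak, genes at the summits of member peaks, and copies. Genes that a peak covers away from its summit were named after their values were seen. The procedures were tested on simulated data, where all 567 positions planted in each class were recovered. Python 3.11.15, numpy 2.4.6, pysam 0.24.0 and matplotlib 3.10.9 were used. The other experiments of the series were not analysed here.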

Additional observations from a re-analysis of the deposited data

How the results depend on the processing

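Of 123 alternative values, 82 stayed within 1.5 times the reported count or rank or within the interval of the share, and 41 moved. No paired analysis was possible because the lists hold no column per replicate, and for the same reason no replicate could be left out. With a fold enrichment of at least 5, 9 goat and 1 mouse member peaks remained, and the background fell to 8.70% (goat) and 2.36% (mouse). Peaks within 1 kb merged to 11 at members in the goat list. Members with at least 5 goat peaks, 4 as reported, were 0 after merging, 0 with a fold enrichment of at least 5, 2 with a q-value under 0.001 and 1 with summits whose 32 bp occur once, all chosen after seeing the data. They were 3 without a window, 3 with the summit inside the window and 3 with at least 50% of the peak inside. These rules too were chosen after seeing the data. The share of protein-coding genes with at least 5 was 0.531% after merging. It was not counted under the other rules, so those counts have no background. A q-value under 0.001 left 1 mouse peak. With 5 kb either side, 3 members had a mouse peak (5 peaks) and 1 had a ChIP-seq peak (4 peaks), with backgrounds of 24.9% (goat), 9.19% (mouse) and 0.973% (ChIP-seq). Without a window they were 18.6% (goat) and 6.30% (mouse), and over all annotated genes 9.89%, 3.54% and 0.381%. With all annotated transcripts, goat peaks were 7 promoter, 8 body and 6 TES. By any overlap of the peak, 5 were TES and 1 outside. By the summit, 2 goat peaks and 0 mouse peaks were TES and 1 outside, and with windows of 500 bp 1 mouse peak was body and 1 outside. Ranked by q-value the strongest goat peaks were 1628 (HSPA5), 103 (HSPA8), 3299 (HSP90AA1) and 79 (HSP90AB1), and the mouse HSP90AB1 peak 429. Ranked by p-value they were 1628, 103, 3379, 79 and 429. The cause of these moves was not tested, other than that a wider window, a stricter limit or more transcripts changes what is counted. The canonical transcript with 1 kb either side, chosen after seeing the data, gave 22 goat peaks at 5 members and left the mouse and ChIP-seq counts as they were. The unknown depth limits how weak a peak the lists could hold.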

Other observations

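Processed pseudogenes are copies of mature messenger RNA in the genome and lack the introns of the parent gene. Of 75 annotated pseudogenes named after a member, 26 were named after HSPE1, 18 after HSPD1, 17 after HSPA8, 6 after HSP90AB1, 5 after HSP90AA1, 2 after DNAJB1 and 1 after HSPA5. None of the 75 had a peak in the goat, mouse or ChIP-seq list. Over 14664 annotated pseudogenes, 0.402% overlapped a goat peak, 0.198% a mouse peak and 0% a ChIP-seq peak, so that a count of 0 among 75 is near the common share.

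A goat peak with a fold enrichment of 5.86 lay 3527 bp past the HSP90AA1 TES, at the 7SL pseudogene RN7SL472P, and the 32 bp at its summit occur 6 times in the genome.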
